A study of Homo sapiens with 3 samples.

Results

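The comparison described here set MDA-MB-231 cells kept for 72 h with 10 µM CFX against the same cells kept for 72 h with DMSO. It covered 10126 genes of the 14884 that had a named probe set, taken from 2 of the 3 arrays of the series. MDA-MB-231 is an established human cell line from a triple-negative breast cancer, a tumour class without oestrogen receptor, progesterone receptor or amplified HER2. CFX is ciprofloxacin, the fluoroquinolone antibiotic named in the title of the series. The third array came from cells given 10 µM Mt-CFX for 72 h, a compound known here only by that name, and its values are set beside those of CFX where useful. The control held 1% DMSO, and the labels give no DMSO content for the CFX culture, so CFX and a difference in DMSO cannot be told apart. All cells were 1 line, each group was 1 array (n = 1), and the labels describe no repeat culture. No value below therefore has a replicate error, no test was possible, and no difference was set against a spread between repeats.

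A gene's level is the deposited log2 value of its probe set, a group of array probes that reads 1 transcript. A gene counted as measured if at least 1 of the 3 arrays read 3.89 or more, a limit called the floor here, which is the median of all probe set values. Differences are the CFX value minus the control value on the log2 scale, and only their sizes are described. The genes measured comprised 8868 protein-coding genes, 563 long non-coding RNA genes, 425 microRNA genes, 228 transcribed pseudogenes and some smaller classes. The array medians were 3.91 for the control and 3.90 for CFX. Both arrays carried the mesenchymal markers of this line: VIM, which encodes the mesenchymal filament protein vimentin, read 9.17 on both, and the receptor tyrosine kinase gene AXL read 10.97 in the control and 10.93 with CFX. The progesterone receptor gene PGR read 2.39 in the control, under the floor, and the oestrogen receptor gene ESR1 read 3.81 in the control and 3.92 with CFX. Luminal epithelial markers also read above the floor in the control, with KRT19 at 6.12, GATA3 and CLDN3 at 5.52, EPCAM at 5.37 and FOXA1 at 4.36, though levels of different probe sets are not comparable. The endothelial marker PECAM1 and the hepatocyte marker ALB were under the floor, at 2.59 and 3.06 in the control. In such bulk RNA, fewer cells of a kind and less RNA per cell cannot be told apart.

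Fluoroquinolones kill bacteria by trapping DNA gyrase and topoisomerase IV, the bacterial type II topoisomerases, on cut DNA. Human cells hold related enzymes, TOP2A and TOP2B, as well as mitochondria, whose DNA and ribosomes descend from bacteria. Fluoroquinolones also bind metal ions, and so the lists of genes examined include metal handling, iron-dependent enzymes, mitochondrial gene expression, division and repair, and the surface and secreted proteins by which tumour cells signal. MicroRNAs are short RNAs that pair with messenger RNAs through bases 2 to 8, the seed, and lower their translation or stability.

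The CFX array was close to the control array. Exactly the same value stood on both arrays for 5951 genes, 58.8% of those measured, while 25.3% were higher with CFX and 15.9% lower. Among the 4175 genes that differed at all, the median size of the difference was 0.083 on the log2 scale. A difference of at least 1.5-fold was found for 39 genes (0.385%), of which 20 were higher (0.198% of genes measured) and 19 lower (0.188%). For 13 of these 39 genes 1 of the 2 arrays lay below the floor, and for 2 more, MIR3189 and MIR521-2, both did. Without a floor 43 genes were higher and 46 lower, and with both arrays at or above the floor 12 and 12. At least 2-fold was reached by 7 genes (0.0691%). The higher ones were the microRNA genes MIR29A, MIR1224 and MIR4516, the long non-coding RNA gene LINC00173, the zinc finger gene ZNF836 and SPN, which encodes the leukocyte surface protein CD43. The single lower one was the microRNA gene MIR3194.

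**Figure D1:**
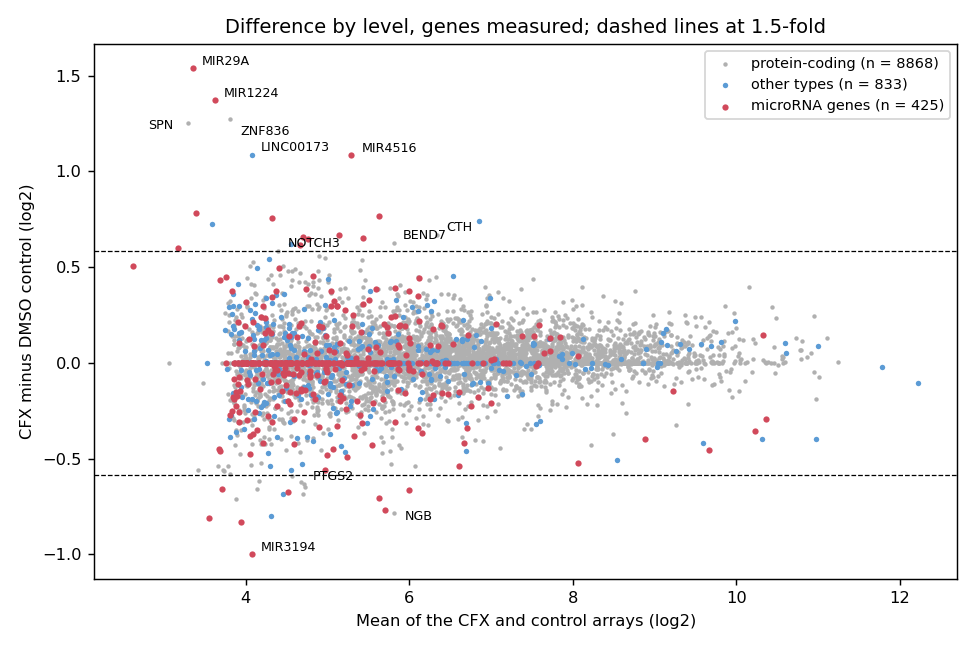
Each point is a gene measured, placed by the mean of its CFX and control levels (x axis, log2) and by CFX minus control (y axis, log2), with microRNA genes in red, protein-coding genes in grey and other types in blue. The dashed lines mark 1.5-fold, and microRNA genes make up 20 of the 39 points on or beyond them.

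MicroRNA genes supplied 51.3% of the genes at 1.5-fold and 4.20% of the genes measured. Of the 425 measured, 20 differed by at least 1.5-fold (4.71%), with 12 higher (2.82%) and 8 lower (1.88%), against 4 (0.0451%) and 9 (0.101%) of the protein-coding genes. Their differences spread more widely, with an SD across genes of 0.25 on the log2 scale against 0.094 for protein-coding genes, and genes are not replicates. The SD was 0.16 for transcribed pseudogenes and 0.12 for long non-coding RNA genes. Of the 16805 probe sets without a gene name that reached the floor, 7.13% were at 1.5-fold, a larger share than among microRNA genes. Between genes of like level, the share at 1.5-fold was still larger for microRNA genes than for protein-coding genes. With a mean level between 4 and 5 it was 3.30% of microRNA genes and 0.221% of protein-coding genes, and between 5 and 6 the shares were 5.60% and 0.132%. The labelling kit was a whole-transcript kit used on total RNA, and these values do not tell the mature microRNA from its precursor. A mature sequence of each microRNA gene at 2-fold is printed from RefSeq (GRCh38.p14), 5′ to 3′, with the seed in capitals. They had the largest differences among the microRNA genes measured, though not among all genes. MIR29A, MIR1224 and MIR3194 each have another mature sequence, which is not printed, and the values do not tell which was read. The 20 microRNA genes at 1.5-fold stood for 31 mature sequences, and no seed was shared between these genes.

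miR-29a-3p (MIR29A): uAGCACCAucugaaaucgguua
miR-1224-5p (MIR1224): gUGAGGACucgggaggugg
miR-4516 (MIR4516): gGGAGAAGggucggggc
miR-3194-5p (MIR3194): gGCCAGCCaccaggagggcug

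The largest difference of any gene measured was that of MIR29A, whose miR-29a-3p lies at chr7:130876748-130876769 on the minus strand. The gene read 2.59 in the control, 4.13 with CFX and 4.26 with Mt-CFX, a difference of 1.54 for CFX, or 2.91-fold, from a control value under the floor. The miR-29 family is known for repressing collagen and other matrix messenger RNAs, and its members have 1 seed in common, as the other mature sequences show.

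miR-29b-3p (MIR29B1 and MIR29B2): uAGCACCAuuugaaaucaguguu
miR-29c-3p (MIR29C): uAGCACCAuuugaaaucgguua

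The other family members did not share the difference. MIR29C read 4.79 in the control and 4.81 with CFX, MIR29B2 read 2.92 and 2.85, and MIR29B1, encoded beside MIR29A on chromosome 7, read 1.80 on both arrays. The last 2 genes were under the floor on these arrays.

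MIR1224 read 2.94 in the control, 4.31 with CFX and 2.39 with Mt-CFX. MIR4516 read 4.75, 5.83 and 5.30 on the same arrays, above the floor on each, a CFX difference of 1.08. Both genes have another probe set, which was higher with CFX by 1.06 for MIR1224 and 0.78 for MIR4516. MIR3135A was higher by 0.77, from 5.24 to 6.01, MIR504 by 0.76, from 3.95 to 4.71, and MIR3934 by 0.67, from 4.81 to 5.48. MIR3189, which lies within the gene of the stress cytokine GDF15, read 3.00 in the control and 3.79 with CFX, both under the floor, and counted as measured only through its 4.31 with Mt-CFX. GDF15 itself read 5.51 in the control and 5.83 with CFX. Among the lower genes, MIR3194 read 4.58 in the control, 3.58 with CFX and 4.83 with Mt-CFX. MIR4502 was lower by a log2 difference of −0.77, from 6.09 to 5.32, MIR539 by −0.70, from 5.98 to 5.28, and MIR4740 by −0.67, from 6.33 to 5.66. MIR4502 and MIR539 stood with Mt-CFX at 6.10 and 5.89, near the control.

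Several of these microRNA genes lie within or across the transcript of another gene that was measured too. Apart from GDF15, these other genes differed by at most 0.07 in size. The hosts ARF1 of MIR3620 and FGF13 of MIR504 were exactly equal on both arrays. JAK1, host of MIR3671, was higher by 0.03, and RASSF3, host of MIR548C, was lower at −0.07. GALK2, UQCC2 and PKD1 are counted too, but they lie on the strand opposite to MIR4716, MIR3934 and MIR4516. The microRNA genes were picked for a difference of at least 1.5-fold, and the other genes of these pairs were not. That choice alone would mostly give a smaller difference in the other gene. These pairs therefore cannot show whether a microRNA gene and its host differ together.

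**Figure D2:**
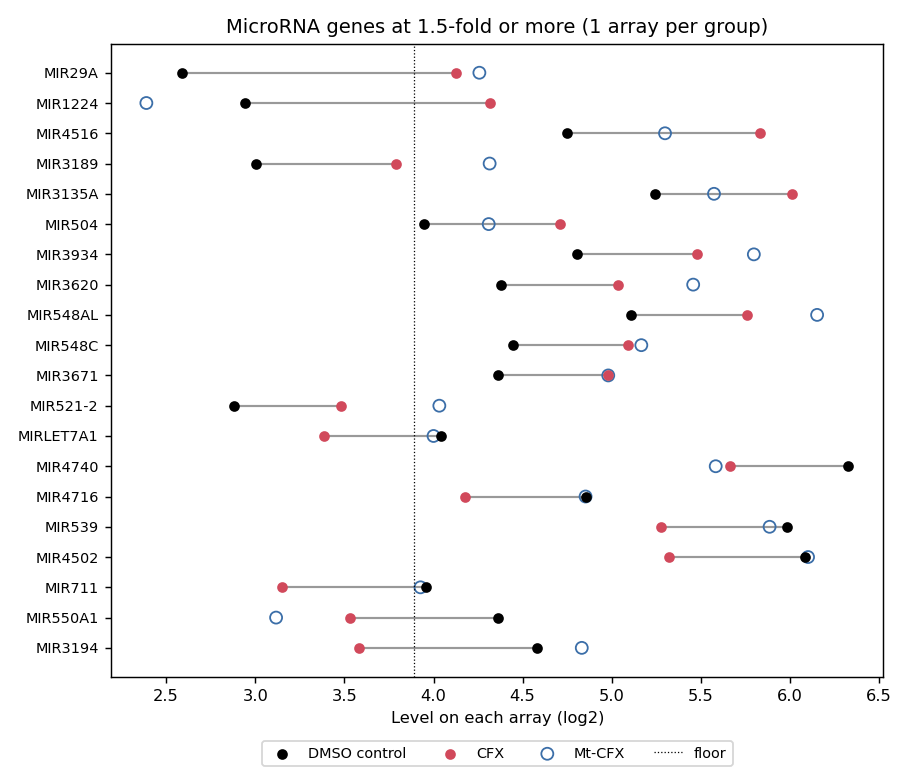
The level (x axis, log2) of the 20 microRNA genes at 1.5-fold or more is shown on the control array (black), the CFX array (red) and the Mt-CFX array (open blue), with the floor as a dotted line. The 12 genes at the top were higher and the 8 at the bottom lower with CFX, and 8 of the 20 had a control or CFX value left of the floor.

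The let-7 family, a set of microRNAs known for restraining growth-promoting genes, gave values in both directions. The same mature let-7a-5p comes from 3 genes, so it is shown to make clear that the precursor genes gave different readings while the mature RNA could not be assigned to any of them.

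let-7a-5p (MIRLET7A1, MIRLET7A2 and MIRLET7A3): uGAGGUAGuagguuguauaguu

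MIRLET7A1 read 4.04 in the control and 3.39 with CFX, a difference of −0.66, MIRLET7A2 read 5.71 and 5.95, and MIRLET7A3 read 5.67 and 5.46. Of 7 measured genes of the family, 2 were higher, 2 lower and 3 exactly equal.

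Most of the brightest microRNA probe sets were lower with CFX. Of the 8 microRNA genes with a mean level over 8, 6 belong to the MIR3689 cluster on chromosome 9, a group singled out here after its values were seen, and all 6 were lower, by a mean difference of −0.36 and a median of −0.38. The remaining genes over level 8 were MIR4442, higher by 0.04, and MIR4737, higher by 0.15. The 6 genes lie within a short stretch of the minus strand, from miR-3689a-3p at chr9:134849494-134849515 to miR-3689f at chr9:134850783-134850804 (GRCh38.p14). The 5p or only mature sequences of A, B and E are identical and that of F shares their seed, while D1 and D2 give 1 other mature sequence. Their probe sets may thus read shared RNA and need not be independent of each other.

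miR-3689a-5p (MIR3689A): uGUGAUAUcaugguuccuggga
miR-3689b-5p (MIR3689B): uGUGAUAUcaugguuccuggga
miR-3689e (MIR3689E): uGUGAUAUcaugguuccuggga
miR-3689f (MIR3689F): uGUGAUAUcgugcuuccuggga
miR-3689d (MIR3689D1 and MIR3689D2): gGGAGGUGugaucucacacucg

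MIR3689D1 read 8.32 in the control, 7.80 with CFX and 8.05 with Mt-CFX, the largest difference of the cluster at −0.52. MIR3689D2 differed by −0.46, MIR3689E by −0.40, MIR3689B by −0.36, MIR3689A by −0.29 and MIR3689F by −0.15. The most strongly read of them, MIR3689A, stood at 10.50 in the control, 10.21 with CFX and 10.41 with Mt-CFX.

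A class of small nuclear guide RNAs was also more often lower than higher. The SCARNA genes encode small Cajal body RNAs, which guide chemical modification of the RNAs of the spliceosome. Of 23 measured, 12 were lower, 1 higher and 10 exactly equal, so that 52.2% were lower and 4.35% higher, beside 16.5% and 30.3% of genes at like level, that is, of all genes measured in each class of mean level, weighted by the classes of these 23. Their mean difference was −0.077 and their median −0.030, the lowest mean among the 65 groups of at least 15 measured genes that share a symbol stem. SCARNA22 read 8.79 in the control, 8.28 with CFX and 8.53 with Mt-CFX, and SCARNA12 read 9.80, 9.38 and 9.61. The 1 higher gene, SCARNA15, read 3.75 in the control and 3.90 with CFX.

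Among long non-coding RNA genes, 4 of 563 (0.710%) were at 1.5-fold, 3 higher and 1 lower. LINC00863 was the one with the strongest signal, at 6.49 in the control, 7.23 with CFX and 6.92 with Mt-CFX. LINC00173 read 3.53 in the control and 4.62 with CFX, but its 3 other probe sets were exactly equal on both arrays. UCA1, a long non-coding RNA first studied in bladder cancer, read 3.23 and 3.96, and its other probe set was exactly equal. The lower gene was CEP83-DT, which read 4.80 in the control, 4.12 with CFX and 4.80 with Mt-CFX. The pseudogene SKP1P2 read 4.71 in the control and 3.91 with CFX.

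Of the protein-coding genes, 13 (0.147%) differed by 1.5-fold, and 270 (3.04%) by 1.2-fold, of which 156 were higher (1.76%) and 114 lower (1.29%). In 5 of the 13, among them ZNF836 and SPN, 1 array lay under the floor: ZNF836 read 3.17 in the control and 4.44 with CFX, SPN 2.67 and 3.93. Among genes with both arrays at or above the floor, the 15 highest differences ran from 0.46 to 0.67 and the 15 lowest from −0.78 to −0.44. The highest was CTH, which makes cysteine from cystathionine, at 6.01 in the control and 6.68 with CFX. NOTCH3, a receptor of the Notch pathway, read 4.11 in the control, 4.69 with CFX and 4.31 with Mt-CFX, and UBE2D4, a ubiquitin-conjugating enzyme, read 5.15, 5.69 and 5.55. TAC4, which encodes a tachykinin peptide, and GALR2, a receptor of the neuropeptide galanin, were higher by 0.48 each, and S100A9, a calcium-binding protein of inflammatory cells, by 0.47. GNPDA2, an enzyme of amino sugar breakdown, read 5.16 in the control and 5.64 with CFX.

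Among the 15 lowest, PTGS2, the inducible cyclooxygenase that starts prostaglandin synthesis, read 5.03 in the control, 4.39 with CFX and 5.98 with Mt-CFX. BMP8B, a bone morphogenetic protein, read 5.05 in the control and 4.40 with both compounds. STC1, which encodes the secreted glycoprotein stanniocalcin, read 6.34 in the control, 5.80 with CFX and 5.26 with Mt-CFX, and VGF, a secreted neuropeptide precursor, read 4.90, 4.43 and 4.90. The muscle filament gene DES (−0.47) and the globin gene NGB (−0.78) had another probe set each, which was exactly equal for DES and higher by 0.13 for NGB.

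Zinc finger genes stood at both ends. ZNF605 (−0.68), ZNF594 (−0.59) and ZNF823 (−0.53) were among the 15 lowest and ZNF32 (0.50) among the 15 highest. ZNF823 read 6.04 in the control, 5.51 with CFX and 5.59 with Mt-CFX, whereas ZNF605 read 5.05 in the control, 4.36 with CFX and 5.05 with Mt-CFX. Over all 357 ZNF genes measured, 88 were higher (24.6%, beside 20.3% of genes at like level) and 59 lower (16.5%), with a mean difference of 0.01 and 6.16% at 1.2-fold, beside 4.06% of all genes measured.

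**Figure D3:**
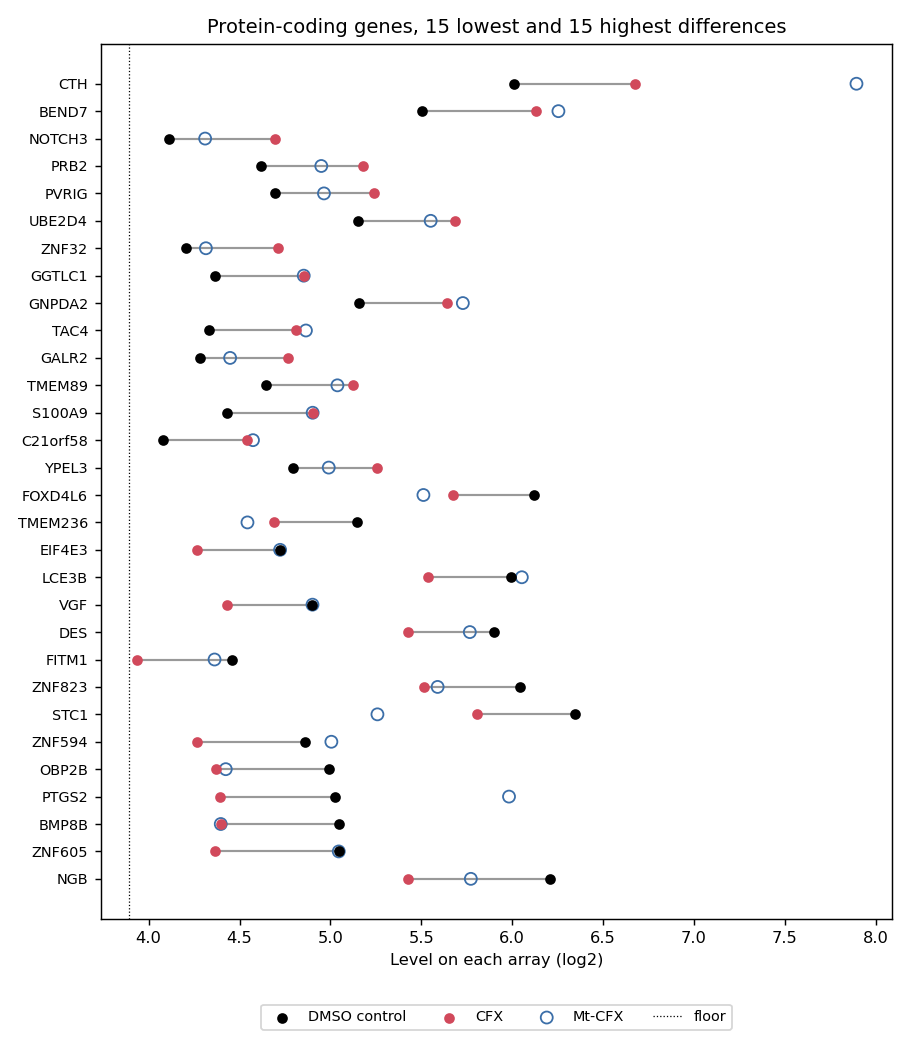
The level (x axis, log2) of the 15 protein-coding genes with the highest and the 15 with the lowest CFX minus control difference, among those with both arrays at or above the floor (dotted line), is shown on the control array (black), the CFX array (red) and the Mt-CFX array (open blue). CTH stands at 6.01 in the control and 6.68 with CFX, and NGB at 6.21 and 5.43.

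The strongest signals held smaller differences: no gene with a mean level over 7 reached 1.5-fold. Among them, SOS2, an activator of Ras, read 7.30 in the control, 7.74 with CFX and 8.19 with Mt-CFX. TULP3, which carries receptors into the primary cilium, read 7.92, 8.32 and 8.67, and the endosomal sorting gene SNX6 read 8.57, 8.95 and 8.80. Lower were ADGRG1, an adhesion receptor, at 7.33, 6.89 and 6.19, LPCAT1, which remodels phosphatidylcholine, at −0.43 from a control level of 8.43, and COLGALT1, which adds galactose to collagen, at 8.68, 8.31 and 8.06. LPCAT1 read 7.07 with Mt-CFX. For SOS2, TULP3, ADGRG1, LPCAT1 and COLGALT1 the Mt-CFX value lay further from the control than the CFX value did. For SNX6 the Mt-CFX value lay nearer to the control.

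The direction of small differences went with the level of the gene. With a mean level between 4 and 5, 401 of 2865 genes were higher and 413 lower (14.4%) with CFX. Between 6 and 7 the shares were 28.8% and 16.1%, between 7 and 8 39.6% and 16.5%, and over 9 62.9% and 20.8%. The share exactly equal was 71.6% at level 4 to 5 and 16.2% over level 9. Counts of gene lists are therefore set beside the share at like level, which is the share of protein-coding genes in each level class, weighted by the classes of the list's members. Over the 27 lists with at least 5 measured members, the like-level share of lower genes lay between 14.3% and 15.8%. That of higher genes is given with the lists whose counts are reported below, which are not all of the 27.

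**Figure D4:**
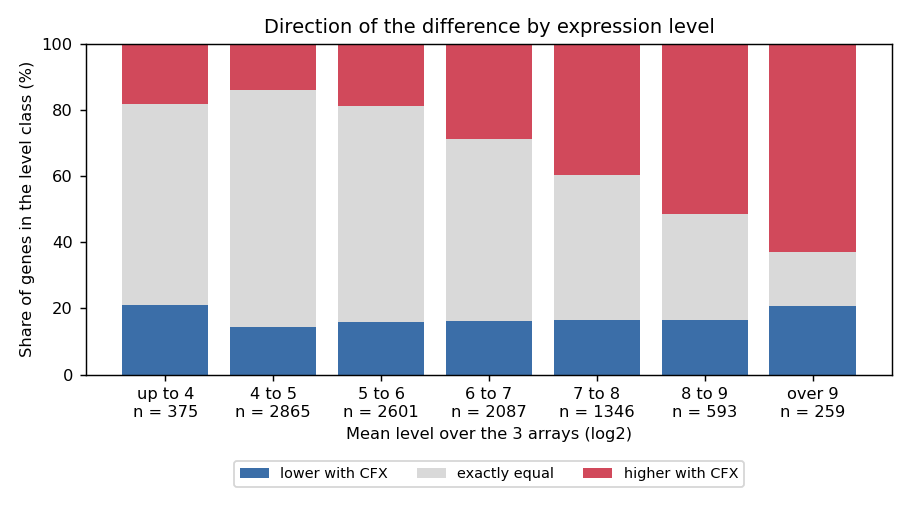
Bars give the share of genes measured (y axis, percent) that were lower with CFX (blue), exactly equal (grey) or higher with CFX (red), in classes of mean level over the 3 arrays (x axis, log2) with the number of genes under each. The higher genes are 401 of 2865 at level 4 to 5 and 62.9% over level 9, while the lower share runs from 14.4% to 20.8% between them.

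Of 35 lists of genes, 27 had at least 5 measured members, and 657 of the 1752 listed genes were measured. Most list medians were exactly 0, as was the median over all genes measured, so counts and means are given. In 11 lists of signalling, secreted, matrix and surface proteins, 28 of 241 measured genes were higher (11.6%) and 67 lower (27.8%), beside 25.3% and 15.9% of all genes measured and 23.3% and 14.8% at like level. In 5 lists of nuclear, division and repair proteins, 59 of 119 were higher (49.6%) and 13 lower (10.9%), beside 33.0% and 15.4% at like level. In 3 lists of mitochondrial proteins 31 of 99 were higher (31.3%) and 10 lower (10.1%), beside 28.5% and 15.3%. This grouping of lists was made after their values were seen and was not tested. It leaves out lists of other places in the cell, such as keratins and interferon-stimulated genes, which held more lower than higher members, and single lists within the first group, such as Notch and the receptor tyrosine kinases, had means just above 0. Within a mean level of 6 to 8, 7 of 56 genes of the first group were higher (12.5%) and 25 lower (44.6%), 35 of 68 of the second were higher (51.5%) and 11 lower (16.2%), while 32.9% of all protein-coding genes were higher and 15.6% lower. The mitochondrial lists had 21 of 54 higher (38.9%) and 2 lower (3.70%) there. Within a level of 4 to 6, where 15.9% of protein-coding genes were higher and 14.2% lower, 13 of 154 genes of the first group were higher (8.44%) and 34 lower (22.1%), and 7 of 31 of the second higher (22.6%) and 0 lower. The mitochondrial lists had more lower than higher members at that level, 7 of 38 against 4. The differences were small throughout, with means of −0.028 and 0.038 for the first and the second group.

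**Figure D5:**
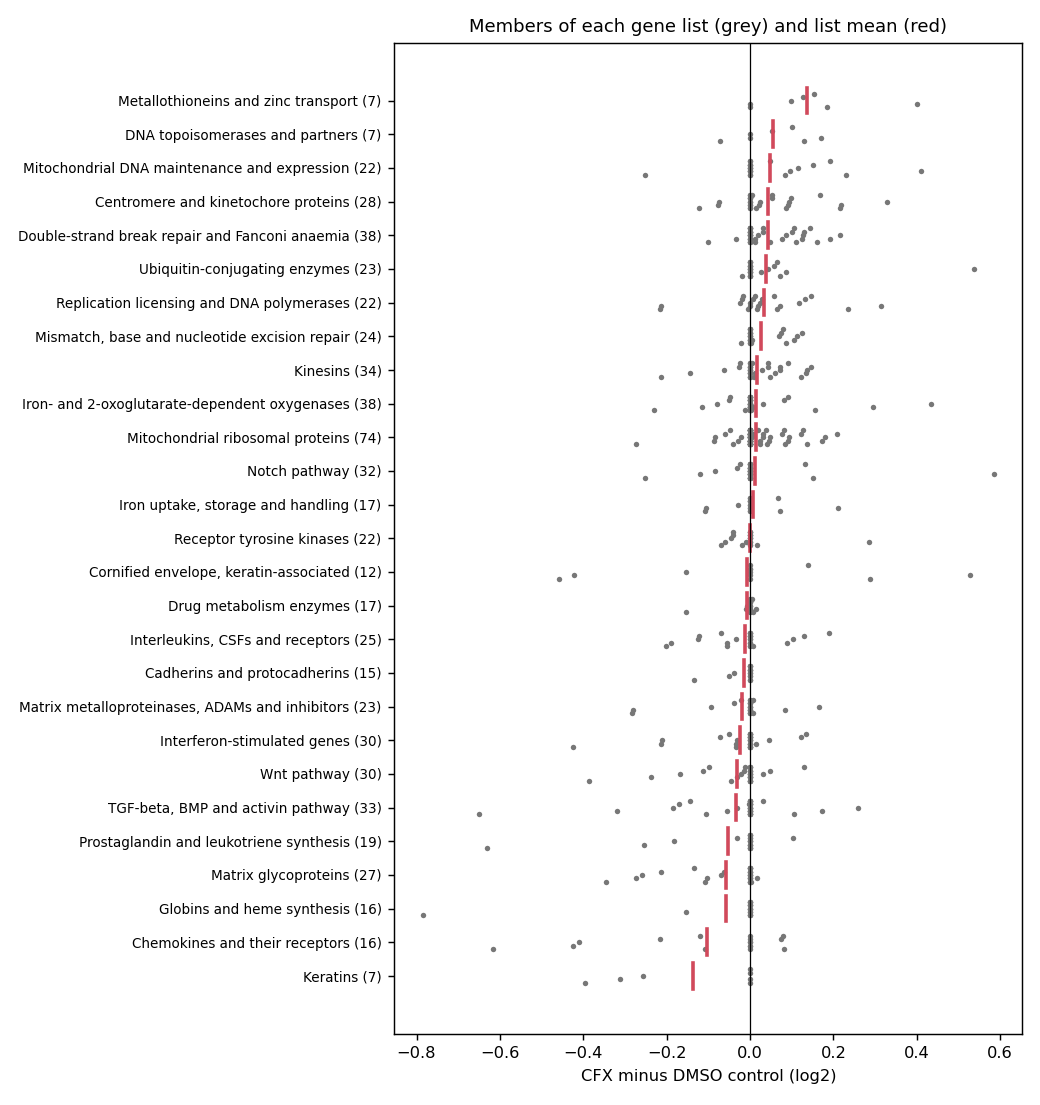
Grey points are the measured members of each of the 27 gene lists, placed by CFX minus control (x axis, log2), and the red bar is the list mean, with the number of members in parentheses. Lists are ordered by mean, from keratins at −0.14 at the bottom to metallothioneins and zinc transport at 0.14 at the top.

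The signalling lists held more lower than higher members. Chemokines, which attract leukocytes, and their receptors comprised 16 measured genes, of which 6 were lower (37.5%) and 3 higher (18.8%, like-level share 14.5%), with a mean of −0.10. CX3CL1, a membrane-bound chemokine, read 4.52 in the control, 4.10 with CFX and 4.52 with Mt-CFX. CCL2, the monocyte attractant, read 7.11 in the control, 6.70 with CFX and 3.76 with Mt-CFX. CCL24, an attractant of eosinophils, read 4.48 in the control and 3.86, under the floor, with both compounds. The prostaglandin and leukotriene list had 4 of 19 lower (21.1%) and 1 higher (5.26%, like-level share 22.1%). Beside PTGS2, it held PTGES, the synthase of prostaglandin E, at 5.72 in the control, 5.47 with CFX and 5.09 with Mt-CFX.

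The Wnt list, which covers a pathway of cell fate and growth, had 10 of 30 genes lower (33.3%) and 3 higher (10.0%, like-level share 25.4%), with a mean of −0.031. The receptor gene FZD2 read 5.98 in the control, 5.60 with CFX and 5.16 with Mt-CFX, and its co-receptor LRP5 read 7.72, 7.49 and 6.97. WLS, which carries Wnt proteins to the cell surface, was lower at −0.17, and LEF1, a transcription factor of the pathway, was higher by 0.13. In the TGF-beta, BMP and activin list 9 of 33 were lower (27.3%) and 4 higher (12.1%, like-level share 23.2%). Beside BMP8B, LTBP1, which stores latent TGF-beta in the matrix, read 7.71 in the control, 7.39 with CFX and 6.92 with Mt-CFX. SMURF2, a ubiquitin ligase that marks receptors and SMAD proteins of this pathway for breakdown, was higher, at 9.84, 10.10 and 10.31. For FZD2, LRP5, LTBP1 and SMURF2 the CFX value thus lay between the control and the Mt-CFX value. The Notch list had 3 of 32 higher (9.38%, like-level share 25.7%) and 5 lower (15.6%), and beside NOTCH3 it held LFNG, a sugar transferase that tunes Notch receptors, at 4.75 in the control and 4.50 with CFX.

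Matrix glycoproteins, which make up the scaffold outside the cell, had 9 of 27 genes lower (33.3%) and 2 higher (7.41%, like-level share 25.5%), with a mean of −0.058, or −0.13 among members above the 75th percentile of all probe sets. TNC, encoding tenascin, read 7.66 in the control, 7.31 with CFX and 7.96 with Mt-CFX. FN1, encoding fibronectin, read 8.78, 8.52 and 8.05, THBS1, encoding thrombospondin, read 9.52, 9.31 and 8.38, and AGRN, encoding agrin, read 6.49, 6.22 and 6.34. All of these were strongly read on both arrays, and TNC differed from the control in opposite directions under the 2 compounds. The protease list had 5 of 23 lower (21.7%) and 4 higher (17.4%, like-level share 25.6%), and its lowest members were the protease inhibitors TIMP3 and TIMP4, each at −0.28. TIMP3 has another probe set, which was exactly equal on both arrays. Among surface receptors, 8 of 22 receptor tyrosine kinases were lower (36.4%) and 3 higher (13.6%, like-level share 26.9%), but the mean was 0.001, with the collagen receptor DDR2 higher by 0.28. Of 15 cadherins and protocadherins, cell adhesion proteins, 3 were lower and 0 higher, with a like-level share of 21.1% higher.

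Keratins, the filament proteins of epithelial cells, had the lowest list mean, −0.14 over 7 measured genes, of which 3 were lower, 0 higher (like-level share 22.2%) and 4 exactly equal, and −0.053 when members under the floor were included. KRT19 read 6.12 in the control, 5.80 with CFX and 5.94 with Mt-CFX, KRT8 read 5.83, 5.57 and 5.83, and KRT16 read 4.64 in the control and 4.24 with both compounds. Over the 17 measured genes of the symbol stem KRT, which includes keratin pseudogenes and not the keratin-associated KRTAP genes, 6 were lower and 2 higher, 1 of the 2 being the pseudogene KRT17P5. Interferon-stimulated genes, the antiviral set, had 8 of 30 lower (26.7%) and 5 higher (16.7%, like-level share 25.7%). Interleukins with their receptors had 8 of 25 lower (32.0%) and 5 higher, close to the like-level higher share of 20.5%.

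In the nucleus, 14 of 28 centromere and kinetochore genes, which attach chromosomes to the spindle, were higher (like-level share 33.0%) and 3 lower (10.7%), with a mean of 0.043. SKA3, a subunit of the complex that holds kinetochores on microtubules, read 7.82 in the control, 8.15 with CFX and 7.78 with Mt-CFX, and its partner SKA1 read 6.37, 6.59 and 6.80. Of the double-strand break repair and Fanconi anaemia genes, 18 of 38 were higher (47.4%, like-level share 31.2%) and 2 lower (5.26%), with DNA2, a nuclease and helicase of end processing, at 7.27 in the control and 7.48 with CFX. Replication genes, whose levels are high, had 14 of 22 higher (63.6%, like-level share 39.1%) and 6 lower (27.3%). PCNA, the sliding clamp of DNA polymerases, read 8.44 in the control, 8.75 with CFX and 8.22 with Mt-CFX, and GINS3, a part of the replicative helicase, was higher by 0.24. FEN1 (−0.22), which trims Okazaki fragments, and UHRF1 (−0.21), which maintains DNA methylation, were lower. TOP2A, which untangles replicated chromosomes, read 10.67 in the control and 10.80 with CFX, and the related enzyme gene TOP2B read 8.29 and 8.46. Of the 7 measured genes of the topoisomerase list, 4 were higher (57.1%, like-level share 40.4%), 2 exactly equal and 1 lower, TOP1 at −0.07. The proliferation marker MKI67 read 9.73 on both arrays. Kinesins, the motors that walk along microtubules, had 15 of 34 higher (44.1%, like-level share 32.8%) and 5 lower (14.7%), the latter near the background.

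Mitochondrial DNA maintenance and expression had 8 of 22 genes higher (36.4%, like-level share 27.3%) and 1 lower (4.55%), with a mean of 0.049. The largest difference was in RRM2B, a ribonucleotide reductase subunit that supplies DNA precursors outside S phase and is a known target of p53, at 5.68 in the control, 6.09 with CFX and 6.21 with Mt-CFX. DGUOK, a kinase of mitochondrial DNA precursors, was higher by 0.23, and LRPPRC, which stabilises mitochondrial messenger RNAs, by 0.15. The 1 lower gene was TRMT10C, a subunit of mitochondrial RNase P, at −0.25. Of 74 mitochondrial ribosomal protein genes 22 were higher (29.7%, like-level share 28.3%) and 8 lower (10.8%), with a mean of 0.014, so that the higher share was near the background. They spanned from MRPL20 at −0.27 to MRPL1 at 0.21.

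Metallothioneins are small cysteine-rich proteins that bind zinc and copper, and their genes are switched on by the zinc-sensing factor MTF1. The list of metallothioneins and zinc transport had the highest mean, 0.14 over 7 measured genes, with 5 higher (71.4%, like-level share 31.3%) and 0 lower. The 7 were 6 metallothionein genes and MTF1, so no zinc transporter was measured. With members under the floor included, the mean was 0.047. Of the metallothionein genes under the floor, MT1B (−0.35) and MT1G (−0.13) were lower and MT1H was higher by 0.04. MT1M and the pseudogene MT1L, also under the floor, were exactly equal on both arrays. MT1F read 4.35 in the control and 4.76 with both compounds. MT2A read 8.83 in the control, 8.95 with CFX and 9.21 with Mt-CFX, MT1X read 8.92, 9.07 and 9.32, and MT4 read 5.51, 5.69 and 5.93. MT1E was higher by 0.10, and MT3 and MTF1 were exactly equal on both arrays. These genes lie close together and resemble each other, so their probes may read shared RNA, and none differed by 1.5-fold. Of the 6 metallothionein genes measured, 3 had a promoter in the RefSeq table (GRCh38.p14). The 250 bases before the start of each are printed because these genes were all higher with CFX, with each match of TGCNCNC, the core of the metal response element with any base at its purine position, in capitals on either strand. Overlapping matches run together.

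MT2A promoter, chr16:56608334-56608583, plus strand: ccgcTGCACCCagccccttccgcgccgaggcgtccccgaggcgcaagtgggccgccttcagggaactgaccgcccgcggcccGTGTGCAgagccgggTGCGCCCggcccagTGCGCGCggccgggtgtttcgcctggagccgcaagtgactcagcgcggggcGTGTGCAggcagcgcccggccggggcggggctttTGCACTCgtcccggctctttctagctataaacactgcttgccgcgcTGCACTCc
MT1X promoter, chr16:56682220-56682469, plus strand: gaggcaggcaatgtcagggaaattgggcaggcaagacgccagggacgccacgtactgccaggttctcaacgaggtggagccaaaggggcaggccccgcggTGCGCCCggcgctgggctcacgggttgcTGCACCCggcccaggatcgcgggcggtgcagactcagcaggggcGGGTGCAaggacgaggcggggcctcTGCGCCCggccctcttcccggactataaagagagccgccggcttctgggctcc
MT4 promoter, chr16:56564823-56565072, plus strand: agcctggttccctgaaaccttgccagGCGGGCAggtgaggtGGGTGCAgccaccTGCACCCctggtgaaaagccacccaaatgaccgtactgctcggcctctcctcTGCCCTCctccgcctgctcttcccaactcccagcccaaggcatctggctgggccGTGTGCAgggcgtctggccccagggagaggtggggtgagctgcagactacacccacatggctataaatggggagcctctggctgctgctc

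The MT2A stretch held 7 matches, that of MT4 5 and that of MT1X 4. Among those of MT4, TGCCCTC and, on the other strand, GCGGGCA lack the purine. Of 35116 promoters in the table, 49.1% held at least 1 match and 1.77% at least 4. A match describes the letters and not a site that is used.

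Iron-dependent enzymes and iron handling gave no common direction. Of the 38 iron- and oxoglutarate-dependent oxygenases, which include histone demethylases and the hydroxylases that sense oxygen, 8 were higher (21.1%, like-level share 26.0%) and 6 lower (15.8%), with a mean of 0.015. The higher ones included histone demethylases: KDM7A read 4.68 in the control, 5.11 with CFX and 6.45 with Mt-CFX, and KDM4A read 6.79, 7.09 and 7.23. The oxygen sensor EGLN3 was lower at −0.23, from a control value of 4.10. Of 17 iron genes, 3 were higher (17.6%, like-level share 24.6%) and 3 lower. The drug metabolism list likewise had 3 of 17 higher (like-level share 26.0%) and 3 lower, the largest in size being under 1.2-fold.

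By symbol stem, which mixes protein-coding and other genes, the highest means were those of UBE, ZSCAN, KDM and BCL, and the shares at like level given here are those of all genes measured. Of 29 UBE genes, for ubiquitin-conjugating and related enzymes, 10 were higher (34.5%, like-level share 31.7%) and 1 lower (3.45%, like-level share 16.2%), so that the higher share was near the background, with a mean of 0.047 and UBE2D4 as the largest. Of 16 ZSCAN genes, zinc finger factors with a SCAN domain, 5 were higher (31.3%, like-level share 17.3%) and 1 lower. Of 17 protein-coding KDM genes 8 were higher and 0 lower, while the lower members of the stem were the non-coding KDM4A-AS1 (−0.11) and KDM7A-DT (−0.03). Over all 19 genes of that stem the higher share was 42.1%, beside 25.4% at like level. Of 16 BCL genes, 5 were higher (31.3%, like-level share 23.2%) and 2 lower (12.5%, like-level share 15.9%), both near the background. BCL6, a transcriptional repressor, read 4.85 in the control and 5.23 with both compounds, and BCL10, an adaptor of NF-kappaB signalling, read 7.13 in the control, 7.33 with CFX and 7.15 with Mt-CFX.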

How the data were processed

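Total RNA of 3 MDA-MB-231 cultures was labelled with whole-transcript GeneChip kits and read on 1 array each, per the labels' protocols. The values deposited by the authors are log2 expression values per probe set, for which the submitters' processing notes name RMA and the Affymetrix Expression Console. Versions, annotation release and genome build are not given in the sources used here. RMA equalises the arrays' distributions, so a difference in total RNA is not visible, and it summarises probes by median polish, a step that can give equal values.

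The platform annotation named 16098 of 53617 probe sets, with 1 gene each and 0 with several. For each gene the probe set with the highest mean of the 3 arrays was used, which mattered for 592 of the genes measured, and genes were kept from a floor of 3.89 on the highest array. With 1 array a group no test was made. Sizes of 1.5-fold, 1.2-fold and 2-fold were counted, and 35 gene lists and symbol stems with at least 15 members were described by counts, median and mean. The named genes were drawn mainly from the 15 highest and 15 lowest protein-coding genes above the floor and from all genes at 2-fold. Further sources were protein-coding genes at 1.5-fold with 1 array below the floor and up to 4 members of each list. The 5 highest and lowest non-coding genes, the 4 highest and lowest symbol stems and 16 preset genes were sources too. Not every member of these sets is named. Of the preset genes, 6 had a named probe set and the others were not analysed here. The members and lists were chosen with earlier results of these data known. Of the 425 microRNA genes measured, 387 had a mature sequence in the RefSeq table (GRCh38.p14). The counting was tested on simulated data. Python 3.11.15, numpy 2.4.6, pandas 2.3.3, statsmodels 0.14.6 and matplotlib 3.10.9 were used. The number of arrays limits the precision.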

Additional observations from a re-analysis of the deposited data

How the results depend on the processing

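No paired analysis was possible because each group was 1 array, and no array could be left out. The count of genes at 1.5-fold, 20 higher and 19 lower, was 43 and 46 with no floor, 12 and 12 with both arrays at the floor, 8 and 5 with the floor at the 75th percentile of 5.43, and 4 and 9 over protein-coding genes alone. With the floor on the mean of the arrays 13 genes were higher. The counts were 6 and 1 at 2-fold and 221 and 190 at 1.2-fold. The other 5 recounts stayed within 1.5 times. The means and medians of the lists stayed within 0.05 log2 in 370 of 378 recomputations. Exceptions included metallothioneins and zinc transport, with a mean of 0.047 with no floor, and chemokines, at −0.41 with the higher floor, which left CCL2 alone. With all probe sets of a gene averaged, NGB stood at −0.33, DES at −0.24, MIR1224 at 1.21 and MIR4516 at 0.93. The cause was not tested. The comparisons of list groups within classes of level were chosen after seeing the data. Exact ties limit what small differences can show, and differences under the floor rest on weak signal.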

Other observations

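Genes with several named probe sets allow a comparison within the 2 arrays, which is a description and not a replicate, since probe sets of 1 gene may share probes. Among microRNA genes at 1.2-fold with another probe set, 13 of 15 had all other probe sets on the same side, 1 had them exactly equal and 1 had one on the opposite side. Among protein-coding genes at 1.2-fold, 1 of 15 had the others on the same side, 13 had them all exactly equal and 1 had one on the opposite side. Exactly equal values were common, at 59.3% of all probe sets. Some of the equal probe sets lay under the floor, such as those of HINT3 at 1.01 and ZNF383 at 3.31. Others lay above it, such as that of FOXD4L6 at 5.28. The protein-coding genes with exactly equal other probe sets included RPL19, a ribosomal protein gene higher by 0.32 in the probe set used, and TRIB2, a pseudokinase gene at −0.31.

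The annotation left 37519 probe sets without a gene. Of these, 16805 reached the floor, and 679 were at least 1.5-fold higher and 520 at least 1.5-fold lower with CFX, together 7.13%. Exactly equal values stood on both arrays for 44.2% of them. What these probe sets read was not analysed here.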
